A study of Mus musculus with 2 samples.

Results

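Endothelial-like cells were a small population in a preparation of biliary epithelial cells, the cells that line the bile ducts of the liver. They were selected on measured values, as kept cells with at least 5 UMIs (transcripts counted through unique molecular identifiers) summed over 9 endothelial genes: Ptprb, Stab2, Kdr, Flt1, Cdh5, Eng, Cyyr1, Adgrf5 and Ehd3. Cells were kept with 500 or more genes detected, 1000 or more UMIs, and mitochondrial genes holding no more than 15% of UMIs. By this rule 222 of 6220 kept cells, out of 6362 deposited, were members. Of these, 96 were among 2713 kept cells of the library labelled Sox9cKO, a share of 3.54% (exact 95% Clopper-Pearson interval 2.88 to 4.30). The other 126 were among 3507 kept cells of the library labelled Sox9con, a share of 3.59% (3.0 to 4.26). The shares in the 2 libraries did not differ beyond counting error.

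Both libraries were made from mouse liver, and their labels give biliary epithelial cells as the cell type. They differ in the genotype label, Sox9cKO in one and Sox9con, the control by the series' design, in the other. Cells were fixed and barcoded in rounds of pooling and splitting with a Parse Biosciences kit. The allele, the Cre driver, the agent, the animals' age and sex, the number of animals pooled and any sorting step are not given in the sources used here. With 1 library per genotype label no test was possible, no p-value is given, and every difference below describes these 2 libraries only. Intervals are exact 95% intervals and cover counting error only. The cells of the Sox9cKO library lay in 5 first-round wells and those of the Sox9con library in 4 others, and wells were used as a technical spread, never as replicates. No barcode and no first-round well was shared by the libraries, so wells and libraries cannot be told apart.

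Liver sinusoidal endothelial cells line the blood sinusoids between plates of hepatocytes. They are perforated by open pores, lie on little basement membrane and clear waste macromolecules from blood through scavenger receptors. Endothelium of arteries, of larger veins and of the vessels around bile ducts is continuous and carries adhesion and clotting proteins that sinusoids show less. Both kinds depend on VEGF receptors, VE-cadherin junctions and transcription factors of the ETS and SOXF families.

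The members were shallower than the biliary cells around them. Median UMIs per cell were 2806 in Sox9cKO members and 2388.5 in Sox9con members, against 5125 and 3223 in the other kept cells. The members' summed depth was 342831 and 405008 UMIs, against 14452064 and 12208562 in the other kept cells. Median mitochondrial shares were 3.54% and 2.27% in members and 5.92% and 5.54% in the others. Over first-round wells the share of members ran from 2.82% to 4.98% in the Sox9cKO library and from 2.99% to 4.36% in the Sox9con library, and these ranges overlap. The smallest well held 16 members and the largest 38.

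The 9 genes that chose the cells give the size of the selection and are no finding. The median marker sum was 41.5 UMIs in Sox9cKO members (range 5 to 204) and 38 in Sox9con members (5 to 544), while no other kept cell can exceed 4 by the rule. The threshold fell in a sparse zone. Just outside it, 22 Sox9cKO and 11 Sox9con cells had 3 or 4 marker UMIs, with medians of 71 and 63 UMIs over 15 biliary genes. Just inside it, 10 and 8 members had 5 to 9 marker UMIs, and 6 and 8 of these also had at least 5 biliary UMIs. A sum of 20 or more was reached by 76 and 108 members.

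Transcripts of bile duct epithelium marked a second feature of the selection. Biliary marker UMIs had a median of 2 per member in both libraries, against 57 and 59 per other kept cell. Of the 222 members, 46 carried at least 5 biliary UMIs, 20 in the Sox9cKO and 26 in the Sox9con library, and the remaining 176 carried fewer. These 46 split into 25 with at least 20 marker UMIs and 21 with fewer. No doublet caller was run, and whether the 46 were pairs of cells was not tested. Values without them are given below for some results only, and all other values include them.

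**Figure D1:**
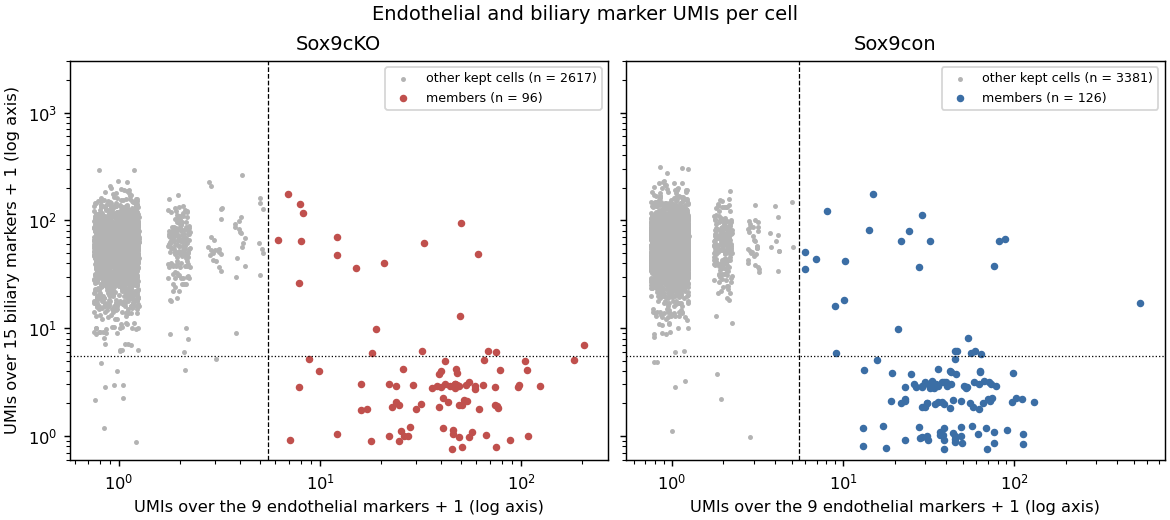
Each point is a kept cell, with the sum over the 9 endothelial markers on the x axis and the sum over 15 biliary markers on the y axis (UMIs plus 1, log axes, slight jitter). The dashed line is the rule and the dotted line 5 biliary UMIs; 176 of the 222 members lie below the dotted line, and nearly all other cells lie above it.

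The members' wider programme was endothelial. Pan-endothelial genes outside the rule were counted as higher when their CPM (a gene's part of the summed UMIs, on the usual CPM scale) was at least 4-fold above the other kept cells in both libraries. Of 25 such genes with a mean of at least 50 CPM over members and others, 24 were higher and 0 lower. The same call held for 387 of all 3956 counted genes, or 9.78%, and 67 genes, or 1.69%, were at least 4-fold lower. With TMM scaling those counts were 346 and 115. The median log2 ratio of the pan-endothelial list was 8.10, beside -0.14 over all counted genes. Because the rule chose the cells on genes of this programme, these counts describe the selection and support nothing further. The CPM minimum selects too, since a list gene almost absent from other kept cells entered only through a high level in members. Of the 32 listed genes 25 entered, and this limit holds for each list below. The members also differ from the others in depth and in cell type, and all of these enter the ratios.

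Pecam1 (ENSMUSG00000020717), an adhesion molecule at endothelial contacts, stood at 1117 CPM in Sox9cKO members and 1341 CPM in Sox9con members. In the other kept cells it was 8.37 and 18.4 CPM, and no well of either library fell below 855 CPM in members. Erg, an ETS factor that maintains endothelial identity, was at 362 and 326 CPM against 1.25 and 1.06. Tie1 and Tek are the receptors of the angiopoietin system, and their log2 ratios were 8.95 and 5.52 in Sox9cKO and 7.24 and 6.64 in Sox9con. Cldn5, the tight junction claudin of endothelium, was at 117 and 217 CPM against 0.277 and 0.328. Ets1 was the single counted gene of the list that missed the call, at log2 ratios of 2.19 and 1.90, since other kept cells held 154 and 139 CPM. Both libraries thus showed the pan-endothelial genes at log2 ratios from 1.90 upward.

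Sinusoidal identity genes followed. Of 16 counted genes 14 were at least 4-fold higher and 0 lower, with a median log2 ratio of 7.02. Stab1, a scavenger receptor of sinusoids, was at 642 CPM in Sox9cKO and 862 CPM in Sox9con members, against 2.42 and 2.46 CPM in the others. Mrc1, the mannose receptor, was at 893 and 1094 CPM, with a UMI in 63 of 96 and 100 of 126 members. Fcgr2b, an inhibitory Fc receptor by which sinusoids take up immune complexes, was at 350.0 and 565 CPM. Factor VIII is made mainly by liver endothelium, and its gene F8 was at 569 and 906 CPM against 9.48 and 10.2. Gata4, the transcription factor that specifies sinusoidal over continuous endothelium, was at 298 and 452 CPM against 6.64 and 8.27. Maf, Oit3, Plxnc1, Dpp4 and Il1a were also called higher. Meis2 and Cd36 missed the call. Meis2 was at 930.5 and 1363 CPM against 682 and 707 in the others. Cd36, a fatty acid and lipoprotein receptor, was at 137 and 131 CPM in members, 5.51 log2 units above the others in the Sox9con library but 1.04 above them in the Sox9cKO library, where other kept cells held 66.6 CPM against 2.78.

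**Figure D2:**
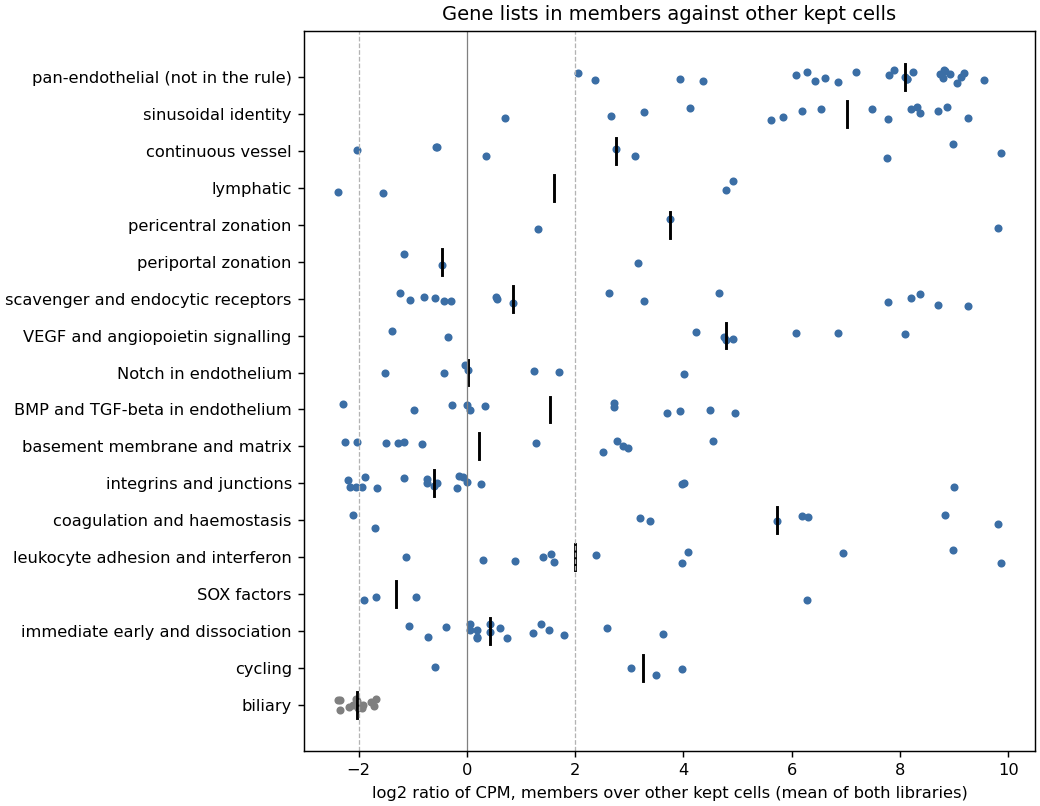
Each point is a counted gene of a list, placed by its log2 ratio of CPM in members over other kept cells (mean of both libraries); black bars are list medians and dashed lines mark 4-fold. Pan-endothelial and sinusoidal genes sit far right at medians of 8.10 and 7.02, and the biliary list sits left of 0 at -2.02.

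Genes of continuous vessels were mixed. Of 20 listed genes 9 were counted, and 5 of these were at least 4-fold higher: Nr2f2, Ephb4, Selp, Sele and Mgp. Nr2f2, a venous transcription factor, and Ephb4, a venous ephrin receptor, were spread over many members, with UMIs in 39 and 22 Sox9cKO and in 55 and 35 Sox9con members. Mgp, a matrix protein of vessel walls, had all its Sox9con UMIs in 1 cell. Selp and Sele, the P- and E-selectins that capture leukocytes, lay in few cells. Selp was at 537 and 580.2 CPM, yet it had UMIs in 17 and 13 members, and 1 Sox9con cell held 73.6% of that library's Selp UMIs. Clu, Cd9, Edn1 and Ly6a were not called, and Clu stood at 1173 and 1272 CPM in members against 3986 and 6156 CPM in the others. Vwf was not counted, at 15 and 4 UMIs, and Cd34 had 6 and 9. Of the lymphatic list, Ccl21a and Mmrn1 had 0 UMIs in members of both libraries. Prox1 of the same list was present in members, from 0 to 73.9 CPM over Sox9cKO wells and from 58.2 to 71.4 CPM over Sox9con wells. Flt4 and Nrp2, receptors for lymphangiogenic VEGF that sinusoids also express, were the 2 higher of 4 counted lymphatic list genes, and 1 was lower.

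Zonation genes distinguish endothelium near the central vein from that near the portal tract. Of 3 counted pericentral genes, Thbd and Kit were higher and Cdh13 was not called. Thbd, the thrombin receptor thrombomodulin, had 37 UMIs in Sox9cKO and 49 in Sox9con members, against 2 and 0 UMIs in all other kept cells. Kit, a receptor tyrosine kinase, was at 117 and 160.5 CPM against 14.6 and 6.88. Wnt2, the Wnt ligand that pericentral endothelium sends to hepatocytes, stayed under the minimum with 14 and 46 UMIs, in 10 and 31 members. Of 3 counted periportal genes Ltbp4 was higher, at 160.4 and 153 CPM against 14.6 and 20.7, and Efnb2 and Adgrg6 were not called. Dll4, a Notch ligand, had 26 and 37 UMIs in 22 and 28 members. Genes of both zones were thus present in the members of each library.

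Scavenger and endocytic receptors were mixed. Of 17 counted genes 7 were higher, namely the cell-surface receptors Stab1, Mrc1, Fcgr2b, Lyve1, Clec4g and Scarb1 and the adaptor Dab2. The general uptake genes Cltc (clathrin), Ap2b1, Ehd4, Cav1, Cavin1 and Scarb2 were not called, and nor were the receptors Lrp1 and Colec12. Cav1, the coat protein of caveolae, was at 37.9 and 46.9 CPM in members against 61.9 and 65.5 in the others.

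Counted genes of VEGF and angiopoietin signalling were mostly higher, with a list median log2 ratio of 4.78. Tek and Tie1 are also on the pan-endothelial list, and Flt4 and Nrp2 on the lymphatic list. Of 9 counted genes 7 were higher: Flt4, Nrp1, Nrp2, Tek, Tie1, Angpt2 and Plxnd1. Nrp1, a VEGF co-receptor, was at 583 and 951 CPM against 36.1 and 43.5. The ligand Vegfa was not called, and it was lower in members than in the others, at 152 and 42.0 CPM against 273 and 159. Notch genes contrasted with this. Notch1 was the 1 higher gene of 7 counted, at 411 and 348 CPM against 18.3 and 30.1, while Notch2 was at 72.9 and 49.4 CPM against 176 and 169.

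In BMP and TGF-beta signalling 6 of 12 counted genes were higher and 1 lower. Bmp2, a ligand by which sinusoids induce hepcidin in hepatocytes, was at 720.5 and 1133 CPM against 24.7 and 34.2. Bmp6, its partner ligand in that system, was not called, with 435 and 548 CPM in members against 1055 and 871 in the others. The receptors Bmpr2 and Tgfbr3, the inhibitors Smad6 and Smad7 and the target Id3 made up the other higher genes. Inhba, which encodes an activin subunit, was the lower gene, with log2 ratios of -2.25 and -2.34.

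Matrix genes of the basement membrane were partly shared with duct cells. Of 12 counted genes Col4a1, Col4a2, Lama4 and Sparc were higher, and genes such as Lama3, Lama5, Lamc1, Fn1, Col18a1, Hspg2 and Nid1 were not called. Nid1, a linker of laminin and collagen IV, shows how far the reference cells can set a ratio. It was at 292 CPM in Sox9cKO and 400.0 CPM in Sox9con members, but the other kept cells held 96.7 and 2.13 CPM, so that the log2 ratios were 1.59 and 7.50. Rhoj, a small GTPase of endothelium, went the other way, at 586 and 407 CPM in members and 29.7 and 157 CPM in the others, with log2 ratios of 4.30 and 1.38. Of 19 counted integrin and junction genes, Itga1, Itga9 and Jam2 were higher and Itga2 was lower.

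Clotting and haemostasis genes were higher in 7 of 9: F8, Thbd, Procr, Tfpi, Pros1, Adamts1 and Nos3. F3, the tissue factor that starts clotting, was not called and was lower in members in both libraries, at 327 and 323 CPM against 1273 and 1515. Nos3, the endothelial nitric oxide synthase, had 57 UMIs in each library, but 1 Sox9con cell held 66.7% of them there.

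Leukocyte adhesion and interferon genes were higher in 6 of 12 counted: Sele, Selp, Cxcl9, Cxcl10, Irf1 and Rnf213. Of the immediate early and dissociation genes 2 of 18 were higher, the flow-responsive factors Klf2 and Klf4, and the list's median log2 ratio was 0.43. Among SOX factors Sox7, of the endothelial SOXF group, was the 1 higher gene of 4 counted, at 172 and 170.4 CPM against 2.28 and 1.97. Its relatives Sox17 and Sox18 stayed under the minimum, with 9 and 9 and with 7 and 11 UMIs. Mki67, Top2a and Cenpf, genes of dividing cells, were higher in members. They lay in few cells, with Mki67 UMIs in 7 Sox9cKO and 16 Sox9con members.

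Sox9, the gene named in the genotype labels, had 15 UMIs in 10 Sox9cKO members and 16 UMIs in 8 Sox9con members. Those are 43.8 CPM (24.5 to 72.2) and 39.5 CPM (22.6 to 64.2), below the 122 and 145 CPM of the other kept cells. The log2 ratio between libraries was 0.14 (-0.97 to 1.26) in members and -0.25 in the others. Members carried other duct transcripts too, as given above, and their part in these Sox9 counts was not tested. The part of the gene that the label's allele removes is not given in the sources used here, so counts over the whole gene are a weak check of the label. An added EGFP sequence had 0 UMIs in the members of both libraries.

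The 15 genes with the highest ratio in both libraries, outside the rule, were Hoxa5, Selp, Cd93, Ldb2, She, Thbd, Mrc1, Adgrl4, Nova2, Zfp366, Robo4, Dnase1l3, Pcdh17, Mef2c and Gimap6. Hoxa5 (ENSMUSG00000038253), a homeobox factor, had 81 UMIs in 43 Sox9cKO members and 98 UMIs in 50 Sox9con members, against 2 and 0 UMIs in all other kept cells. Cd93, a C-type lectin of endothelium, was at 195 and 264 CPM against 0.208 and 0.164. Adgrl4, an adhesion G protein-coupled receptor of endothelium, was at 493 CPM over wells of 355 to 882 in Sox9cKO and 714 CPM over wells of 624 to 777 in Sox9con. Mef2c, a factor in vascular development, was at 283 and 274 CPM. Dnase1l3, a secreted nuclease of sinusoids, was at 566 and 701 CPM against 1.04 and 1.56. She was less even, since 1 Sox9con cell held 49.2% of its UMIs there.

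The 8 genes with the lowest ratio were Btc, Vtn, Bche, Stxbp6, Rgs7, Arfgef3, Cnksr2 and Itih2. Btc encodes the EGF receptor ligand betacellulin and had 3 UMIs in each library's members, against 84.8 and 142 CPM in the others. Vtn, which encodes the plasma protein vitronectin, had 8 and 0 UMIs in members against 213 and 10.2 CPM. All 8 had at most 10 UMIs in either library's members. Over the biliary list, 2 of 14 counted genes, Spp1 and Pkhd1, were at least 4-fold lower, and the median log2 ratio was -2.02. That list is moved by the 46 members with biliary UMIs. Without them 386 genes were at least 4-fold lower, 9.85% of 3920 counted, and 497 were higher, 12.7%.

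Promoters of the higher genes were searched for AGGAAG, a sequence that holds the core of ETS sites, on both strands, which adds CTTCCT as its reverse complement. RefSeq promoter windows of 300 bases, 250 before and 50 after a start, on build GRCm38.p6 were used, and 294 of the 387 higher genes matched the table. The motif was present in 161 of their 407 promoters (39.6%), in 33.7% of the promoters of all counted genes and in 35.4% of all 32851 promoters. Counted by gene, a match was found in 45.9% of the higher genes, 38.8% of counted genes and 38.4% of all genes. Both shares were a few percentage points above those of counted and of all genes, and this difference was not tested. A match is a description of letters in the window and not a binding site. Of the 15 genes with the highest ratio, the 3 shown are the pan-endothelial and sinusoidal list genes with a match before the start. Each is the 250 bases upstream of the start, 5′ to 3′ on the gene's strand, with the motif in capitals. Mrc1 lies at chr2:14229164-14229413 on the plus strand and holds 3 matches, Robo4 at chr9:37401722-37401971 on the plus strand with 1, and Adgrl4 at chr3:151437632-151437881 on the plus strand with 1.
Mrc1: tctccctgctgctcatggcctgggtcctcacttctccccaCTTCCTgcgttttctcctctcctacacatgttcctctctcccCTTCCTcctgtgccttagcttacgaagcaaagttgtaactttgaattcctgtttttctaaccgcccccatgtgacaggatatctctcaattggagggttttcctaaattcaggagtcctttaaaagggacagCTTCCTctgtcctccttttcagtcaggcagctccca
Robo4: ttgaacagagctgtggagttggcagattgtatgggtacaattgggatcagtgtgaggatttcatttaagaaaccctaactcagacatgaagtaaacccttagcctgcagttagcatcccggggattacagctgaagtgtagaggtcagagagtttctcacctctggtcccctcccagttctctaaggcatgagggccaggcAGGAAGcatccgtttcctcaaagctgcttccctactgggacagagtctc
Adgrl4: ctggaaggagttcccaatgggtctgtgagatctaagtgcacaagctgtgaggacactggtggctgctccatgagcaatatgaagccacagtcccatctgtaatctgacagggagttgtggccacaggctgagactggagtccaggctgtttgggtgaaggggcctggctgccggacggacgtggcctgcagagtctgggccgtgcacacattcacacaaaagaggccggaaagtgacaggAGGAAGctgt
All 3 genes were at log2 ratios of 8.83 or more in both libraries, and Gimap6 of the same lists had no match in its window.

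Members varied among themselves along the sinusoidal genes. To compare cells at equal depth, each was thinned to 1000 UMIs. The median member then had 8 sinusoidal identity UMIs in Sox9cKO and 12 in Sox9con, with interquartile ranges of 2.75 to 13 and 7 to 17. Pan-endothelial UMIs had medians of 10 and 9.5. Continuous vessel UMIs had medians of 2 and 1.5 in members, and of 4 and 6 in the other kept cells, which express list genes such as Clu and Cd9. The sinusoidal sum exceeded the continuous sum in 65 of 96 Sox9cKO members (67.7%) and in 112 of 126 Sox9con members (88.9%). These sums are not corrected for gene length, so the line of equality only sorts cells and does not compare the lists. The reverse held for 24 and 11 members, of which 10 and 8 carried at least 5 biliary UMIs. Among the members with under 5 biliary UMIs the reverse was seen in 14 of 76 Sox9cKO and 3 of 100 Sox9con cells. Their median sinusoidal sums were 9 and 13.

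**Figure D3:**
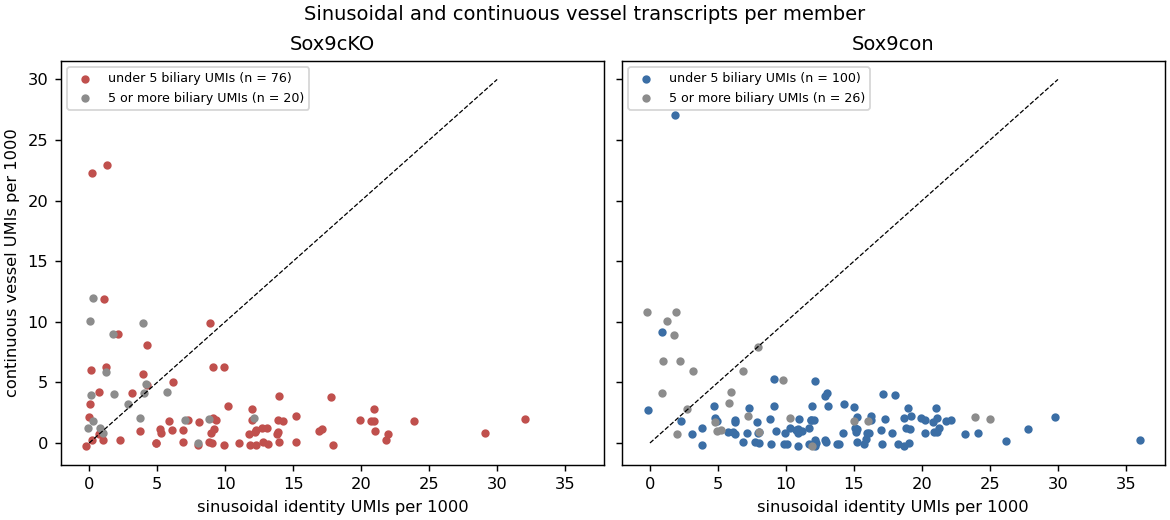
Each point is a member thinned to 1000 UMIs, with sinusoidal identity UMIs on the x axis and continuous vessel UMIs on the y axis; grey points carry 5 or more biliary UMIs and the dashed line marks equal sums. Most members lie along the x axis, 65 of 96 below the line in Sox9cKO and 112 of 126 in Sox9con.

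One cell set many Sox9con values. The deepest member, in well D9 of that library, held 44473 UMIs, 11% of the UMIs of all Sox9con members. It had 651 pan-endothelial, 315 continuous vessel, 54 sinusoidal and 16 biliary UMIs, and 0 UMIs of Stab2, Lyve1, Clec4g, Mrc1 and Ehd3. It held all 130 Mgp UMIs and all 95 Igf2 UMIs of the Sox9con members, 87 of 89 Sulf1 UMIs and 57 of 76 Dkk2 UMIs. The deepest Sox9cKO member held 15536 UMIs, with 244 pan-endothelial and 3 sinusoidal UMIs and 0 of Stab2. Both cells carried at least 5 biliary UMIs, so values without such members leave these cells out too.

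Between libraries, members were compared over the 2199 genes with a mean of at least 100 CPM in members. A gene was called when it was at least 2-fold apart and its counting interval left out 0. By this call 36 genes (1.64%) were higher in Sox9cKO members and 66 (3%) were lower. The median log2 ratio over all 2199 genes was -0.03 in members, with the central 95% of genes from -1.04 to 0.91, and -0.01 in other kept cells. Of the called genes, 1 of the 36 and 5 of the 66 lay in under 10 members of the library with the higher level. Both counts of called genes were higher with the following cells left out. Without well D9 they were 74 and 118, without the deepest member 59 of 2185 (2.7%) and 70 (3.2%), and without members with biliary UMIs 65 of 2050 (3.17%) and 90 (4.39%). Of the 36 higher genes, 24 were still called without the deepest member and 10 without members with biliary UMIs. Of the 66 lower genes, 52 and 43 were still called. In the other kept cells 27 of the 36 and 51 of the 66 had the same sign. The share with the same sign over all 2199 genes was not calculated, so these counts have no background beside them.

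A few sinusoidal genes were lower in the Sox9cKO members. Of 16 counted sinusoidal identity genes 3, Clec4g, Lyve1 and Gpr182, were called lower and 0 higher, the rest were not called, and the list's median log2 ratio was -0.58. Pan-endothelial genes had 0 of 25 called in either direction and a median of -0.26. The summed sinusoidal level was 6931 CPM in Sox9cKO members, over wells of 5396 to 10383, and 9990 CPM in Sox9con members, over wells of 9647 to 10875. The highest Sox9cKO well lies inside the Sox9con range. Without the deepest member the sinusoidal median was -0.74, and without members with biliary UMIs it was -0.62. The make-up of the members differed too, with continuous sums above sinusoidal sums in 24 of 96 Sox9cKO and 11 of 126 Sox9con members. In summed levels, here and for the single genes below, make-up and level per cell cannot be told apart.

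Clec4g (ENSMUSG00000074491), a C-type lectin of sinusoids, had 41 UMIs in 28 Sox9cKO members and 165 UMIs in 82 Sox9con members. That is 120 CPM (85.8 to 162) and 407 CPM (348 to 474). The Sox9cKO wells stood at 271, 97.1, 137, 83.5 and 88.7 CPM, and the Sox9con wells at 442, 642, 485 and 223 CPM. A single pair of the 20 pairs of wells had the higher value in Sox9cKO, and 1 Sox9cKO well overlapped the Sox9con range. Pairs of wells were compared for named and listed genes only. The share of all counted genes whose wells separate by library was not calculated, so separation of wells here and below is a description. The log2 ratio was -1.76 (-2.30 to -1.27), and without members with biliary UMIs it was -2.07. At 1000 UMIs per cell a Clec4g UMI was seen in 13.5% of Sox9cKO and 40.5% of Sox9con members, against 0.0382% and 0.0296% of the other kept cells.

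Lyve1 (ENSMUSG00000030787), a hyaluronan receptor of sinusoids and lymphatics, had 60 UMIs in 26 Sox9cKO members and 189 UMIs in 64 Sox9con members. Its wells were at 543, 165, 190.0, 41.7 and 103 CPM in Sox9cKO and at 314, 400, 515 and 554 CPM in Sox9con. Here 1 Sox9cKO well, A11, was as high as the Sox9con wells and the other 4 were below all of them. The same well held the highest Sox9cKO value of Clec4g. The log2 ratio was -1.41 (-1.86 to -0.99). Gpr182, a chemokine-scavenging receptor, was at 111 and 252 CPM, lower in Sox9cKO in all 20 pairs of wells, with a log2 ratio of -1.17 (-1.76 to -0.63). In the other kept cells, at 5.19 and 1.56 CPM, its ratio was 1.71. Stab2, a hyaluronan scavenger receptor and a gene of the rule, was at 1648 and 1728 CPM with a log2 ratio of -0.07 (-0.23 to 0.09), and its wells overlapped.

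Gatm, Gpihbp1 and Eml1 were also called lower and were spread over many cells. They were not the only further genes of this kind, and Cxcl10 is given below. Gatm (ENSMUSG00000027199), the first enzyme of creatine synthesis, had 51 UMIs in 24 and 202 UMIs in 86 members. Its wells ran from 62.6 to 266 CPM in Sox9cKO and from 277 to 882 CPM in Sox9con, without overlap, and its log2 ratio was -1.74 (-2.22 to -1.30). Gpihbp1 anchors lipoprotein lipase on capillary endothelium and was at 81.7 CPM (wells 19.4 to 339) and 269 CPM (wells 149 to 446), which overlap, with a log2 ratio of -1.70 (-2.37 to -1.11). Eml1, a microtubule-associated protein, was at 70.0 CPM (wells 14.8 to 107) and 296 CPM (wells 228 to 366), without overlap, with a log2 ratio of -2.06 (-2.78 to -1.44). In other kept cells the log2 ratios of these 3 genes were -0.46, -0.46 and -0.66.

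Cxcl10 (ENSMUSG00000034855), an interferon-induced chemokine, had 203 UMIs in 40 Sox9cKO and 674 UMIs in 81 Sox9con members. Its wells were at 611, 417, 781, 731 and 488 CPM in Sox9cKO and at 1036, 2940, 2575 and 804 CPM in Sox9con. All of the former lay below all of the latter, and the share of all counted genes that separate so was not calculated. The log2 ratio was -1.49 (-1.72 to -1.26) in members and -0.81 in other kept cells. Of the other interferon genes Cxcl9 had a ratio of -0.89 and Irf1 one of -0.78, and neither was called. Id3, Stard8, Ier3 and Hspa1b were also called lower, at -1.24, -1.02, -1.07 and -1.10. The last 2 belong to the dissociation list, whose median was -0.21, and whether handling of the cells differed between the libraries was not tested.

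**Figure D4:**
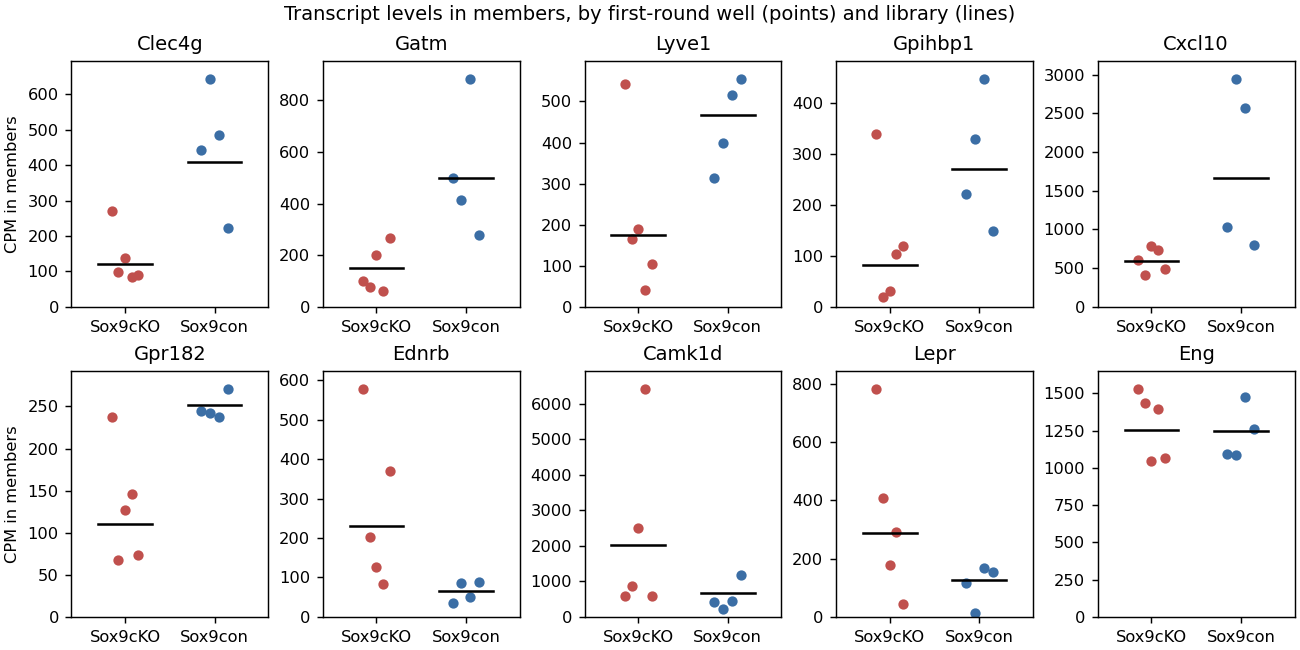
Levels in members (CPM) for 10 genes, with a point for each of 5 Sox9cKO and 4 Sox9con first-round wells and a line at the library's own value. Gatm, Cxcl10 and Gpr182 separate by library without overlap, and the share of all counted genes that do so was not calculated. Clec4g, Lyve1 and Gpihbp1 each have 1 high Sox9cKO well, which is well A11 for all of them. Eng, a gene of the rule, stands at the same level in both libraries.

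The 8 genes with the lowest ratio were Igf2, Dkk2, Sulf1, Eml1, Mgp, Clec4g, Gatm and Gpihbp1. The growth factor gene Igf2, the sulfatase gene Sulf1 and the matrix gene Mgp had ratios of -3.10, -2.73 and -1.96, and without the deepest member these were 4.28, 2.27 and 5.87. Dkk2, a secreted Wnt antagonist, had -2.78 and without that cell -0.97. With cells weighted equally the Dkk2 ratio was -0.04, and the gene was seen in 2 members of each library. The direction of Igf2, Sulf1 and Mgp and the size of the Dkk2 difference therefore rest on 1 cell.

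The 8 genes with the highest ratio were Cacna1c, Egfr, Ednrb, Gsto1, Thbs1, Camk1d, Tango6 and Gpr39, and of these only Ednrb was also at least 4-fold above the other kept cells in both libraries. Ednrb (ENSMUSG00000022122), the endothelin B receptor, had 79 UMIs in 22 Sox9cKO members and 27 UMIs in 9 Sox9con members. Its wells were at 577, 204, 127, 83.5 and 369.5 CPM in Sox9cKO and at 34.9, 85.6, 49.5 and 87.8 CPM in Sox9con, with 18 of 20 pairs higher in Sox9cKO and 1 Sox9cKO well inside the other range. The log2 ratio was 1.77 (1.14 to 2.48). Lepr, the leptin receptor, was at 289 and 126 CPM, a ratio of 1.19 (0.70 to 1.71), with wells of 44.3 to 780.4 and 14.3 to 168 CPM that overlap, and 1 cell in each library held 31.3% and 31.4% of its UMIs. In the other kept cells Lepr was at 20.9 and 2.46 CPM, a ratio of 3.07. Sele was at 160.4 and 79.0 CPM, a ratio of 1.01 (0.37 to 1.70), from 17 and 13 members.

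The other 7 genes were no more abundant in members than elsewhere, or lay in few cells. Egfr, Thbs1, Gpr39 and Tango6 were lower in members than in other kept cells, with log2 ratios of -1.93, -0.37, -1.40 and -0.12 in Sox9cKO. Egfr, the EGF receptor, was at 248 and 51.9 CPM in members, higher in Sox9cKO in all 20 pairs of wells, with a ratio of 2.23 (1.56 to 3.02) in members and 1.06 in the others. It had UMIs in 18 and 13 members. The calcium-dependent kinase gene Camk1d was at 2013 and 664 CPM, a ratio of 1.6, and the other kept cells showed 1.66. Without well B2, at 6408 CPM, the Camk1d ratio was 0.97. The calcium channel gene Cacna1c had the highest ratio, 3.69, but 71 UMIs lay in 3 members and 1 of these held 69.0%. Without well A12 its ratio was -1.52. Gsto1 had 1 cell with 57.9% of its Sox9cKO UMIs, and without members with biliary UMIs its ratio was 0.30. Another choice of members took cells with at least 3 marker UMIs after thinning to 1000 UMIs, with ratios still taken from full counts. The ratios of Gpr39, Thbs1, Tango6 and Gsto1 were then 0.15, 0.34, 0.68 and 0.55, below 2-fold. With the members of the main rule they were 1.52, 1.65, 1.57 and 1.66.

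**Figure D5:**
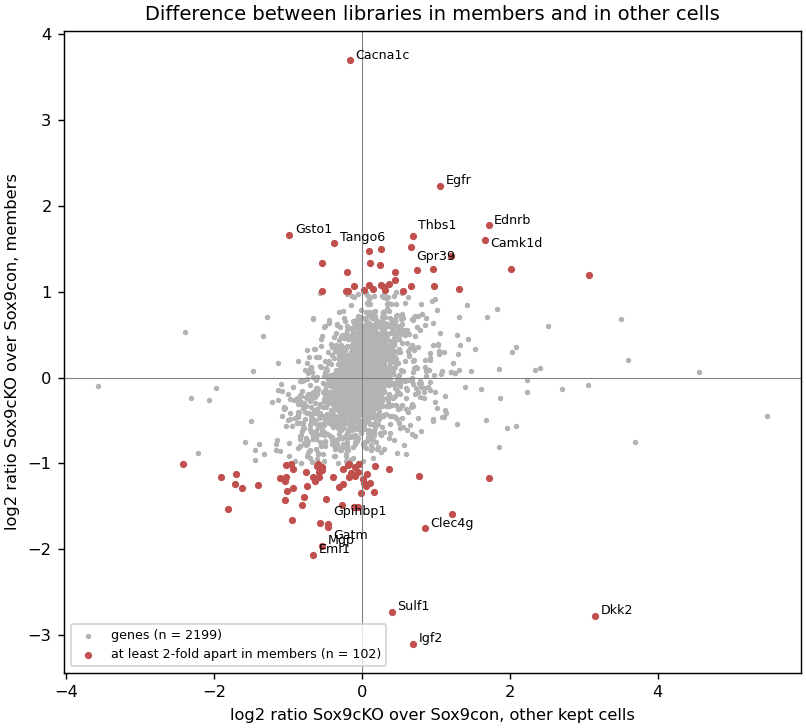
Each point is 1 of 2199 genes, with the log2 ratio of Sox9cKO over Sox9con in other kept cells on the x axis and in members on the y axis; red points are the 36 higher and 66 lower genes called in members, and the 8 named genes of each direction are lettered. Igf2, Sulf1, Mgp and Dkk2 at the bottom come mainly from 1 Sox9con cell, while Clec4g, Gatm and Gpihbp1 lie near -1.7 in members.

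Markers of other liver cells were looked for among the members. Of 14 macrophage and Kupffer genes 10 were at 0 UMIs in members of both libraries, among them Ptprc, Adgre1, Clec4f, C1qa and Lyz2. That list summed to 43.8 and 46.9 CPM in members, above the 40.1 and 30.4 CPM of the others. The lymphocyte list had 9 of 14 genes at 0, Cd3e included. It summed to 20.4 and 32.1 CPM in members, above the 10.1 and 12.5 CPM of the others. For red cells 4 of 6 genes were at 0. Hepatocyte genes summed to 242 and 230 CPM in members against 1150 and 619 CPM in the others, with 6 of 14 genes at 0. Stellate and fibroblast genes summed to 583 and 432 CPM in members, above the 267 and 226 CPM of the others, with 1 of 14 genes at 0. They had UMIs in 36 Sox9cKO and 42 Sox9con members, but only 8 and 6 members held at least 5. A single Sox9cKO member held 57 of these UMIs and a single Sox9con member 76. The part of these genes in the results above was not tested. Dcn, a matrix proteoglycan, had 21 UMIs in 5 and 16 UMIs in 2 members, and Lrat, a marker of stellate cells, had 0 and 1 UMI. Hgf, a growth factor made by both stellate and sinusoidal cells, was higher in members, with 48 UMIs in 19 and 62 UMIs in 22 of them. The smooth muscle and pericyte list had 3 of 9 genes at 0, among them the actin gene Acta2, and UMIs in 22 and 14 members. It summed to 236 and 69.1 CPM in members against 199 and 196 CPM in the others, so that the Sox9cKO members lay above and the Sox9con members below their own library's other cells. Rgs5, a pericyte gene, had 25 UMIs in 9 Sox9cKO and 8 UMIs in 7 Sox9con members.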

How the data were processed

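Per the labels' protocols, fixed cells of 2 mouse liver preparations were barcoded with a Parse Biosciences whole transcriptome kit, with random hexamer and oligo(dT) priming. The authors deposited whole-number UMI counts for each library as a cell by gene matrix, with tables of its cells and of 55415 genes. The build is GRCm39 per the submitters' processing notes, and the aligner, the annotation release and how barcodes were called as cells are not given in the sources used here.

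From these deposited counts cells were kept, members were chosen by the rule given above, and UMIs were summed over the members and over the other kept cells of each library. Sums were scaled to CPM by their own totals. Log2 ratios had 0.5 counts added. Levels carry exact Poisson, shares exact binomial and ratios exact conditional binomial intervals at 95%. Cells were thinned with seed 1. The call rules and the minimum of 50 or 100 mean CPM are in the report. Calculations used Python 3.11.15, numpy 2.4.6, scipy 1.17.1 and pandas 2.3.3, with TMM factors from edgeR 4.0.16 (R 4.3.3) as an alternative scaling only. The ratio and call functions were tested on simulated counts that varied by counting error only. That test does not cover genes with many of their UMIs in 1 cell. No doublets were removed.

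The genes named are the 15 highest and 8 lowest of the smaller ratio over both libraries outside the rule and mitochondrial genes, the 8 highest and 8 lowest called genes between libraries outside mitochondrial and sex-linked genes, the genes of the lists, and EGFP, Sox9, Cd36, Lepr, Rhoj and Nid1. The members, the lists and this rule were chosen with earlier results of these data known. Alternatives changed the marker minimum, the depth at which members were chosen, the cell filter, the mitochondrial maximum, scaling and CPM minimum. They also left out members with biliary UMIs and left out each well. Leaving out the deepest member and weighting cells equally were added after seeing the data. No gene coordinates are given, since the annotation used here is of another build, except for promoters taken from RefSeq on GRCm38.p6. Some list genes and 1 list are not reported here.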

Additional observations from a re-analysis of the deposited data

Results flagged for a closer look

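Among all genes called between libraries, 6 of the 36 higher and 5 of the 66 lower had the opposite sign in the other kept cells beyond the counting interval there. Of these, 4 are genes named or listed in the report and are given here, and the difference between the 2 populations was not tested. The share of all counted genes with such an opposite sign was not calculated. Dkk2 had a log2 ratio of Sox9cKO over Sox9con of -2.78 in members and 3.16 in the others, and 1 cell held 75% of its Sox9con member UMIs. Gpr182 had -1.17 in members and 1.71 in the others, where it stood at 5.19 and 1.56 CPM. Gsto1 had 1.66 in members and -0.98 in the others, and 1 cell held 57.9% of its Sox9cKO member UMIs. Tango6 had 1.57 in members and -0.38 in the others, from UMIs in 15 Sox9cKO and 16 Sox9con members. Its ratio in members was 1.12 at a marker minimum of 10 UMIs and 0.68 with members chosen after thinning to 1000 UMIs.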

How the results depend on the processing

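The share of members was 4.35% in Sox9cKO at a marker minimum of 3 UMIs, 2.63% and 2.73% (Sox9cKO and Sox9con) with at least 1000 genes and 2000 UMIs per cell, and 2.82% and 2.87% without members with 5 biliary UMIs. The count of genes at least 4-fold higher in members was 1445 with no CPM minimum and 235 with the minimum doubled. The count at least 4-fold lower was the least stable. It was 2 (marker minimum 3), 219 (marker minimum 10), 269 (members chosen after thinning), 41 (stricter cell filter) and 386 (without members with biliary UMIs). It was also 115 (TMM), 3189 (no CPM minimum), 36 (minimum doubled) and 255 (cells weighted equally). Genes called higher in Sox9cKO members numbered 65 (marker minimum 3), 65 (without members with biliary UMIs), 408 (no CPM minimum), 12 (minimum doubled) and 59 (without the deepest member), and genes called lower 413 and 30 under the CPM settings. Leaving out 1 well gave 377 to 397 genes higher and 58 to 88 lower in members, and 35 to 74 higher and 55 to 118 lower in Sox9cKO, with the top of both last ranges without well D9. TMM moved the median of all genes between members and others from -0.14 to -0.31. Ratios between libraries changed sign for Cacna1c (-3.49 with members chosen after thinning, -1.52 without well A12), Sulf1, Mgp and Igf2. The last 3 were 2.37, 5.93 and 4.0 without members with biliary UMIs, 2.27, 5.87 and 4.28 without the deepest member, 0.83, 1.99 and 1.04 with cells weighted equally, and 2.60, 5.64 and 4.07 without well D9. Over single omitted wells the ratios ran from -3.13 to 2.60 (Sulf1), -2.45 to 5.64 (Mgp), -3.50 to 4.07 (Igf2) and -1.52 to 4.14 (Cacna1c). Ratios that fell below 2-fold with members chosen after thinning are given with Tango6, Gpr39, Thbs1 and Gsto1 in the report. The changes of Sulf1, Mgp and Igf2 follow from removing or weighting down the deepest member, and the cause of the others was not tested. The named ratios of members over others kept their sign in all 207 values with 1 well left out and all 230 values under other settings. These genes were chosen for extreme ratios in these data, so a kept sign supports nothing. Their sizes left the counting intervals in 1 of the 207 and 10 of the 230 values. Under other settings Cnksr2 ran from -10.6 to -1.36 and Rgs7 from -7.51 to -1.07. No paired analysis was possible because there is 1 library per group. Depth limits genes under about 100 CPM, which rest on few UMIs per library in members.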
